A study of Mus musculus with 7 samples.

Results

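Flag ChIP-seq of Tip60-H3F ESCs upon GFP KD was compared with Flag ChIP-seq of untagged ESCs, to ask which promoters carried Tip60 signal above the background of the antibody. These are 2 of the 7 samples of the series. Both are E14 mouse ESCs, grown without feeder cells in medium with serum and LIF, and both were immunoprecipitated with the Flag-M2 antibody against the Flag epitope. In Tip60-H3F cells a tag of 6 histidines and 3 Flag epitopes had been placed at the C-terminus of 1 copy of the endogenous Tip60 (Kat5) gene, so the other copy gave untagged protein. These cells were infected with a virus for control knockdown (KD) of GFP and taken 72 hr later. The untagged cells are labelled WT, and their labels name no KD although the general protocol for all samples describes a lentiviral infection. The tag and the virus therefore cannot be told apart here, and each side is 1 sample with no replicate. Each library was deposited as signal from −2000 to 2000 bp around 36733 transcription start sites (TSSs), and every one of these rows was compared. Of the rows, 22704 had a RefSeq identifier, and they reduced to 17689 genes when the row with the highest signal in both libraries together stood for its gene.

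Tip60 is the histone acetyltransferase of the Tip60-p400 complex, which acetylates histones H2A and H4. The p400 subunit exchanges H2A for the variant H2A.Z at nucleosomes near promoters. In ESCs the complex is known both for promoting genes of proliferation and for holding differentiation genes silent. The untagged ChIP measures what the antibody and beads bring down where no Flag epitope is present, so it serves as the background.

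The values are coverage in RPM, reads covering a position scaled to 1000000 reads of the library. One read was worth 0.0469 in the Tip60 library and 0.0432 in the untagged library, which gives 21339342 and 23146809 reads. A promoter (−500 to 500 bp) held a median of 12 reads in each, with quartiles of 8 and 17 reads for Tip60 and 8 and 16 for the untagged library. A row was called above background when the Tip60 to untagged ratio was 2 or more and its exact 95% counting interval lay above 1. It was called below background when the ratio was 0.5 or less and the interval lay under 1. The intervals, which are given in brackets throughout, cover the counting of reads alone. Repeated reads were kept by the authors, so the true error is wider, and no value covers the spread between cultures.

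The promoters that lead the comparison are shown first, from −250 to 49 bases of the TSS, 5′ to 3′ on the strand of the gene, from the mm9 genome. Capitals mark matches, on either strand, to the motifs described further on. The first 4 had the highest ratios among genes with at least 30 Tip60 reads, untagged signal at or under its upper quartile and no stack at one position with over 50% of the reads. They are Yars2 (chr16:16302825-16303124, plus strand), Slc7a1 (chr5:149211406-149211705, minus strand), Fubp1 (chr3:151873172-151873471, plus strand) and Sf3b3 (chr8:113370654-113370953, minus strand). Yars (chr4:128866945-128867244, plus strand) and Psat1 (chr19:15999466-15999765, minus strand) follow for the size of their excess. Rps9 (chr7:3655393-3655692, plus strand) and Gata4 (chr14:63864048-63864347, minus strand) are promoters the study examined by ChIP that did not pass here. The TSS of Fubp1, Sf3b3, Rps9 and Gata4 is an annotated transcript start in the mm9 annotation, and the nearest annotated start lies 1 bp away for Yars2, 25 bp for Slc7a1, 34 bp for Psat1 and 49 bp for Yars.
Yars2: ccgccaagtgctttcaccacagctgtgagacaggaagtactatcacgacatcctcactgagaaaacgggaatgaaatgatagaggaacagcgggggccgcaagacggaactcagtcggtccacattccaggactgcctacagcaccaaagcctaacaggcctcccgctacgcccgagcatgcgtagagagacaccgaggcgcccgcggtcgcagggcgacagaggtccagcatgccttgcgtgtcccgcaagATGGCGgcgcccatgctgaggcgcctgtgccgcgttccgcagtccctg
Slc7a1: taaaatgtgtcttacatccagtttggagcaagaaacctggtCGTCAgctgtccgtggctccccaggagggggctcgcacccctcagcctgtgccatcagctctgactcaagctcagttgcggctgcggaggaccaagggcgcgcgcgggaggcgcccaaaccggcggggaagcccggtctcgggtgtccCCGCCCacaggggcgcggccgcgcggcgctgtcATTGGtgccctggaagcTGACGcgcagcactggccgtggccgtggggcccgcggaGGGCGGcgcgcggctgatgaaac
Fubp1: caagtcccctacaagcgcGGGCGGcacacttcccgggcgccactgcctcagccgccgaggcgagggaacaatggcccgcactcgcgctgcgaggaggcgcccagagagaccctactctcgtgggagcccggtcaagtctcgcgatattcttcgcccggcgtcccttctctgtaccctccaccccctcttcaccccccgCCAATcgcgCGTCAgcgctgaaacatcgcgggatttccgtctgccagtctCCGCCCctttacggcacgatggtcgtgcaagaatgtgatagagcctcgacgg
Sf3b3: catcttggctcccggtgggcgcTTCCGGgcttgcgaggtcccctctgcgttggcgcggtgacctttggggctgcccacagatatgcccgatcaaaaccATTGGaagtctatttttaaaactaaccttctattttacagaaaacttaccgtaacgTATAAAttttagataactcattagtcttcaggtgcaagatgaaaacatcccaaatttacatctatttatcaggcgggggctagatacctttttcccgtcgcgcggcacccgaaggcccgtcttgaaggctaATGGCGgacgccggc
Yars: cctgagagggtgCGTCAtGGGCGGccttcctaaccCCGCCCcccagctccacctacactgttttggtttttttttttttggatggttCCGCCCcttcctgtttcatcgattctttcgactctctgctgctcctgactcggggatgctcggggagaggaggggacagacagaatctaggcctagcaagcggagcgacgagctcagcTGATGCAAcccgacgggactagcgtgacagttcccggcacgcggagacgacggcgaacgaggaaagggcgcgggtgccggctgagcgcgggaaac
Psat1: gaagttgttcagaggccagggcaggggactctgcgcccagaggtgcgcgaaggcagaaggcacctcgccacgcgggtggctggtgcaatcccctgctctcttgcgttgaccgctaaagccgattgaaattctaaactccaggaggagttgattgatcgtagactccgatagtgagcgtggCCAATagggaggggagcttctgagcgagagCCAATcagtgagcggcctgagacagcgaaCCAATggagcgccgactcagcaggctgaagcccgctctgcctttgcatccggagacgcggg
Rps9: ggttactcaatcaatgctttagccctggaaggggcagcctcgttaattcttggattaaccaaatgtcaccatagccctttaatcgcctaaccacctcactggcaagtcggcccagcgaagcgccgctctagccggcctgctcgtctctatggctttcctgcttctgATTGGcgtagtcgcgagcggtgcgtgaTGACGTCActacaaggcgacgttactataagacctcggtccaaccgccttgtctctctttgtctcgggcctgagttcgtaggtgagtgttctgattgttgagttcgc
Gata4: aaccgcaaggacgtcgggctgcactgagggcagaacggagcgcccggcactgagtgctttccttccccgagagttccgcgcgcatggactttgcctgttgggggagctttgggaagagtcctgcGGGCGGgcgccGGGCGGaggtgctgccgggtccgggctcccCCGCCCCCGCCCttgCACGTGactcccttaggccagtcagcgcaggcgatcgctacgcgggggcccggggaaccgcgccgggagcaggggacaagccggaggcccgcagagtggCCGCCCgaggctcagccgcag

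Tip60 signal exceeded the Flag background at a minority of promoters. Of the 36733 rows, 2749 were above background (7.48%) and 765 below (2.08%). Of the 17689 genes, 1602 were above (9.06%) and 333 below (1.88%). The mean promoter signal was 0.180 RPM in the Tip60 library and 0.154 in the untagged library, a ratio of 1.17, whereas in the flanks, 1500 to 2000 bp from the TSS, the means were 0.148 and 0.151. The median gene had a ratio of 1.17, with quartiles of 0.828 and 1.67. Rows without a RefSeq identifier were above background in 807 of 14029 cases (5.75%), against 1942 of 22704 (8.55%) for rows with one. Depth limited the calls, since 4678 genes (26.4%) held fewer than 20 reads in both libraries together and 161 of these were above background. A two-sided exact test on the reads, adjusted over all genes by Benjamini-Hochberg, which compares these 2 libraries and not the conditions, called 292 genes above and 18 below.

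**Figure D1:**
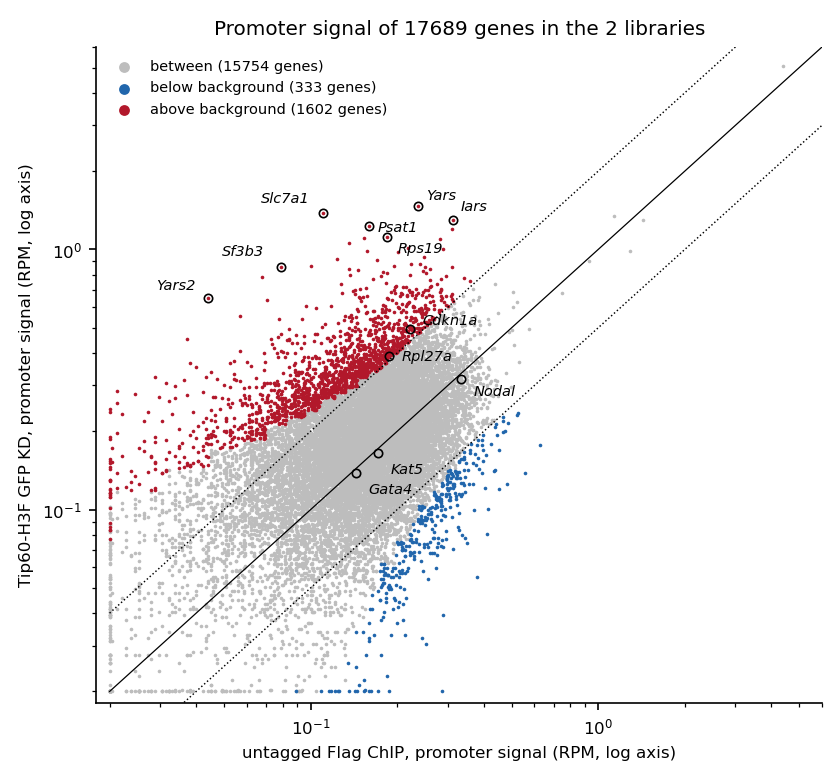
Promoter signal (−500 to 500 bp, RPM, log axes) of 17689 genes in the untagged library (x) and in the Tip60 library upon GFP KD (y), with values under 0.02 drawn at 0.02. The solid line marks equal signal and the dotted lines a ratio of 2 or 0.5. The median ratio was 2.77 for the 1602 genes above background and 0.338 for the 333 genes below. Slc7a1, Yars and Iars stand highest among the circled genes.

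Genes of amino acid transport, amino acid synthesis and tRNA charging led. Slc7a1, which encodes a transporter of cationic amino acids, had a signal of 1.38 in the Tip60 library and 0.110 in the untagged library, from 100 and 9 reads (ratio 12.5, 6.10 to 27.1). Slc38a2, which encodes a transporter of neutral amino acids, had 0.556 against 0.0568, from 40 and 4 reads (ratio 9.79, 3.92 to 41.7). Slc6a9, which encodes a glycine transporter, had 0.638 against 0.0703, from 46 and 6 reads (ratio 9.07, 3.54 to 23.8). These 3 transporters were among the 10 highest ratios of genes under these same filters. Xpot, the exportin that carries tRNA out of the nucleus, had 1.06 against 0.136, from 77 and 11 reads (ratio 7.83, 4.02 to 15.8). Psat1, which encodes an enzyme of serine synthesis, had 1.23 against 0.160, from 90 and 13 reads (ratio 7.71, 4.18 to 14.6). The highest ratio under these filters belonged to Yars2, the mitochondrial tyrosyl-tRNA synthetase, with 0.651 against 0.0440 from 47 and 3 reads (ratio 14.8, 5.47 to 85.4); its width comes from the 3 untagged reads.

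The other genes of the highest ratios lay at shared promoters or encoded RNA-binding proteins. Fubp1, which binds single-stranded DNA and RNA, had 0.452 against 0.0373, from 33 and 3 reads (ratio 12.1, 3.74 to 60.8). Its TSS lies 375 bp from that of the chaperone gene Dnajb4, whose own row gave a ratio of 3.37. Sf3b3, a subunit of the splicing factor SF3B, had 0.859 against 0.0788, from 63 and 6 reads (ratio 10.9, 4.95 to 32.2). Sf3b3 starts 203 bp from Cog4, a gene of Golgi transport with a ratio of 8.63, and the window of each takes in the reads of the other. Snx5, a sorting nexin, and 8430406I07Rik formed another such pair, with ratios of 7.43 and 6.29 and 198 bp between their starts. Among the 1602 genes above background, 237 had the start of another gene within 1000 bp. The same count over all genes is not given here, so this number does not set the genes above background apart.

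By the size of the excess, Slc7a1 was followed by Yars, Psat1 and Iars. Yars, the cytosolic tyrosyl-tRNA synthetase, had 1.47 against 0.235, from 107 and 19 reads (ratio 6.24, 3.73 to 10.5). Iars, the isoleucyl-tRNA synthetase, had 1.30 against 0.312, from 95 and 25 reads (ratio 4.18, 2.63 to 6.69). Tars, the threonyl-tRNA synthetase, had 1.20 against 0.310, from 87 and 24 reads (ratio 3.87, 2.48 to 6.46). Each of these 3 synthetase genes also had background above the median gene (0.157), so the ratio did not rest on a low denominator. Rps19, a protein of the small ribosomal subunit, had 1.12 against 0.185 (ratio 6.07, 3.39 to 11.1). Hspa9, the mitochondrial Hsp70 chaperone, had 1.09 against 0.281 (ratio 3.89, 2.44 to 6.64), and the unannotated gene 5830415F09Rik had 1.11 against 0.153 (ratio 7.25, 3.97 to 14.8).

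**Figure D2:**
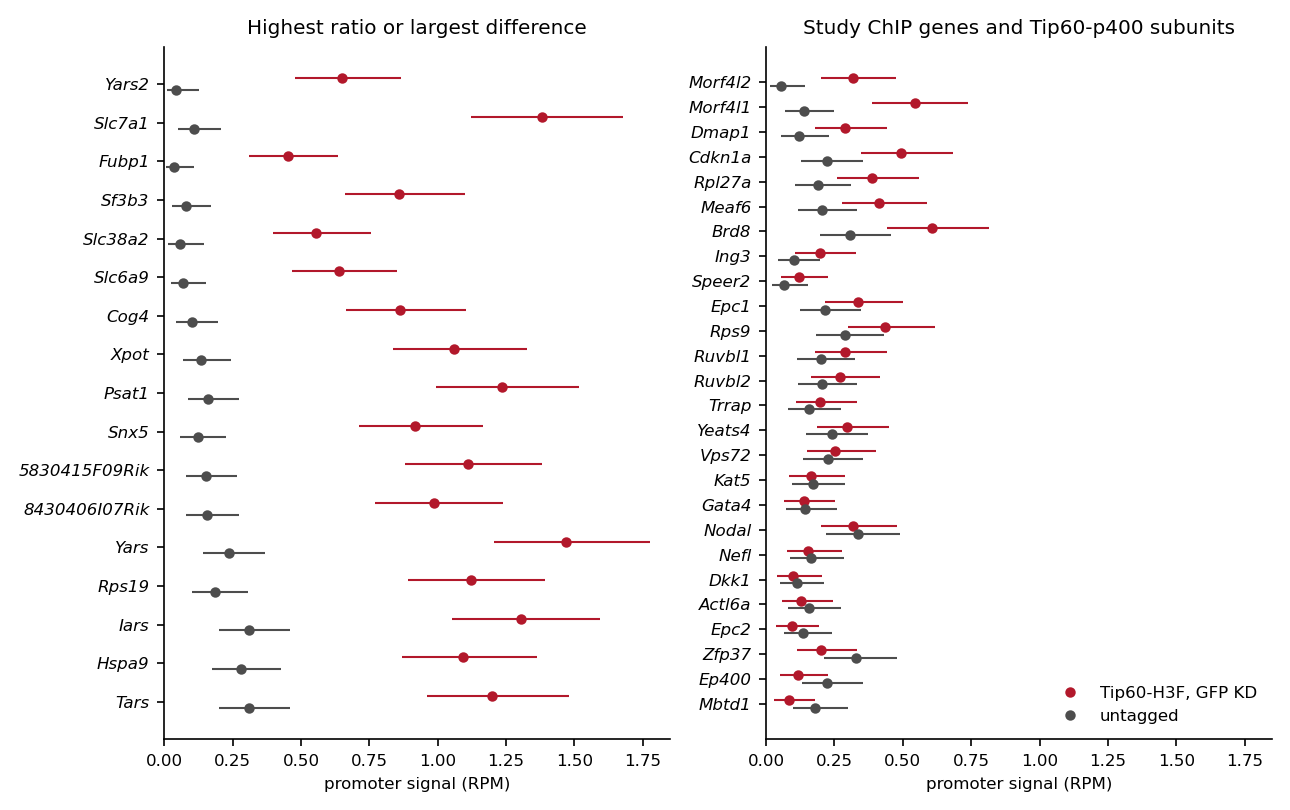
Promoter signal (RPM) with exact Poisson 95% counting intervals in the Tip60 library upon GFP KD (red) and the untagged library (grey), for the genes with the highest ratio or largest difference (left) and for the promoters the study examined and the genes of Tip60-p400 subunits (right), each ordered by ratio. On the left the intervals of the libraries are apart for every gene; on the right most of them overlap.

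The gene lists that follow were chosen with earlier results of these data known. Their shares above background are descriptions, to be read beside the 9.06% of all genes. The aminoacyl-tRNA synthetases, the enzymes that load each tRNA with its amino acid, were above background in 15 of 34 members (44.1%), and none was below. Their median ratio was 1.94, against 1.17 over all genes. Median signal was 0.334 in the Tip60 library and 0.210 in the untagged library, and members ranged from 0.146 to 1.47 in the first and from 0.0440 to 0.358 in the second. Split by symbol after the values were seen, members without a final 2, mostly the cytosolic enzymes, were above in 12 of 20, with a median ratio of 2.28. Those with a final 2, the mitochondrial enzymes, were above in 3 of 14, with a median of 1.65, and the difference between these classes was not tested. Aars had a ratio of 4.34 (2.27 to 8.97) and Lars one of 3.78 (2.21 to 6.41). At the other end, Hars and Hars2 start 160 bp apart, share their reads and had 0.237 against 0.326 and 0.239 against 0.319, ratios of 0.727 and 0.748 whose intervals took in 1.

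Genes of the amino acid stress response are known targets of the factor Atf4 when amino acids run short. They were above background in 9 of 22 members (40.9%, against 9.06% of all genes), with a median ratio of 1.86 and none below. This list was written with earlier results of these data known. After Psat1 came Mthfd2, of mitochondrial one-carbon metabolism, with 0.436 against 0.0898 (ratio 4.85, 2.15 to 13.3). Chac1, which degrades glutathione, had 0.839 against 0.261 (ratio 3.22, 1.89 to 5.45). Asns, the asparagine synthetase, had 0.650 against 0.285 (ratio 2.28, 1.32 to 3.82). The regulators of the response were not among the members that passed, apart from Ddit3 (ratio 2.06, 1.21 to 3.64). Atf4 itself had 0.277 against 0.339 (ratio 0.816, 0.427 to 1.49), and Sesn2, which is also a p53 target, had 0.219 against 0.241 (ratio 0.906, 0.439 to 1.88). With the GC correction described further on, the median of the list was 1.49 and 7 members were above. Solute carriers as a whole, 339 genes to which Slc7a1, Slc38a2 and Slc6a9 belong, were above in 38 cases (11.2%), with a median ratio of 1.21. Slc5a10 and Slc9a7 had 17 and 14 Tip60 reads, and untagged signals of 0.00593 and 0 that both round to 0 reads. With 3 reads in the untagged library taken as a floor, their ratios were 6.15 and 5.06. Their counting intervals start lower, at 4.48 and 3.60.

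Cytosolic ribosomal protein genes had the largest share above background of the 34 lists, 47 of 76 members (61.8%), and none was below. Their median ratio was 2.25, and 73 members had a ratio over 1. Median signal was 0.458 in the Tip60 library and 0.217 in the untagged library, which itself is above the median of all genes. Behind Rps19, Rpl23a had 0.865 against 0.196 (ratio 4.42, 2.56 to 8.62). Rps29 gave the highest ratio of the list, 9.14 (2.63 to 95.7), on 20 and 2 reads. Rps26 and Rpl18 were the lowest, with 0.278 against 0.310 (ratio 0.898) and 0.0992 against 0.183 (ratio 0.542, 0.185 to 1.44). Many ribosomal protein genes have processed copies elsewhere, and reads with several matches were placed at one of them by the authors. Mitochondrial ribosomal protein genes were above in 17 of 70 members (24.3%) and below in 1, with a median ratio of 1.42. Mrps36 had the highest ratio (4.02, on 32 and 9 reads), and Mrps9 was the member below (0.396, 0.180 to 0.816).

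Other genes of protein synthesis, RNA processing and protein folding followed. Translation factors were above background in 22 of 62 members (35.5%), with a median ratio of 1.66. Eif5a, a factor that helps ribosomes through stretches of proline, had 0.782 against 0.0678, from 57 and 5 reads (ratio 11.5, 5.00 to 39.5). A stack at one position held over 50% of the untagged reads there. Eif3c, of the initiation factor eIF3, had 0.494 against 0.0839 (ratio 5.89, 2.45 to 14.9), while Eif4b had 0.172 against 0.313 (ratio 0.548, 0.265 to 1.15). Splicing factors were above in 22 of 79 members (27.8%), with a median of 1.55, led by Sf3b3 and Sfrs6 (ratio 5.74, 2.89 to 12.7); Lsm5 was the lowest (ratio 0.470, 0.187 to 1.06). Chaperones and heat shock genes were above in 15 of 79 (19.0%) and below in 2, with a median of 1.30. Genes of the cell cycle and of replication licensing were above in 13 of 62 (21.0%) and below in 1, with a median of 1.56. Pcna, the sliding clamp of replication, had 0.451 against 0.0839 (ratio 5.38, 2.22 to 13.7), and Mcm6, of the replicative helicase, had a ratio of 4.63 (1.71 to 20.8).

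Of 19 p53 targets, 9 were above background (47.4%, against 9.06% of all genes) and none below, with a median ratio of 2.05. This list too was written with earlier results of these data known. Aen, a p53-induced nuclease, had 0.910 against 0.170, from 66 and 13 reads (ratio 5.34, 3.01 to 10.9). Bbc3, which encodes the killer protein Puma, had 0.270 against 0.0932 (ratio 2.90, 1.26 to 8.67), and Bax, its partner at the mitochondrion, had a ratio of 2.77 (1.72 to 4.69). Cdkn1a, which encodes the cyclin-dependent kinase inhibitor p21, had 0.494 against 0.221 (ratio 2.24, 1.26 to 4.36). Plk2 was the lowest, with 0.139 against 0.214 (ratio 0.647, 0.261 to 1.48). The GC correction left 5 of the 19 above background, with a median of 1.84.

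The genes that encode the Tip60-p400 complex itself were above background in 4 of the 17 present in the files (23.5%), with a median ratio of 1.32. Morf4l2 (ratio 5.74, 2.13 to 24.8) and Morf4l1 (3.91, 1.99 to 8.52), the genes of the proteins Mrgx and Mrg15, were the highest. Dmap1 (2.40, 1.11 to 6.28) and Meaf6 (2.01, 1.07 to 3.99) passed by little, and Brd8, the gene of the bromodomain subunit, lay just under the threshold with 0.607 against 0.308 (1.98, 1.18 to 3.42). Kat5, the gene of Tip60, had 0.165 against 0.172 (0.962, 0.393 to 2.17), and Ep400, the gene of p400, had 0.116 against 0.224 (0.518, 0.181 to 1.17). Trrap, the scaffold, had a ratio of 1.27 and Ruvbl1 and Ruvbl2, the helicase pair, had 1.44 and 1.32. Among the genes of 17 histone deacetylases, 4 were above (23.5%), with a median of 1.35. These were Sirt1, Sirt5, Sirt6 and Hdac1, while Hdac6 had 0.118 against 0.122 (0.964).

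Of the 9 promoters the study examined by ChIP that are in the files, Cdkn1a and Rpl27a (0.388 against 0.188, ratio 2.06, 1.05 to 4.08) were above background. With the GC correction the ratio of Rpl27a was 1.93, under the threshold. Rps9 had 0.436 against 0.288, from 32 and 23 reads (1.52, 0.856 to 2.70). Of the others, Gata4, Nodal, Nefl and Dkk1 lay nearest to equal signal. Gata4, a regulator of endoderm and heart, had 0.138 against 0.144 (0.957, 0.375 to 2.56). Nodal, the signal of mesendoderm, had 0.318 against 0.335 (ratio under 1, interval 0.523 to 1.75), and Nefl, a neurofilament gene, had 0.154 against 0.166 (0.930, 0.372 to 2.22). Dkk1, a Wnt inhibitor, had 0.0992 against 0.112 (0.887), and Zfp37 had 0.202 against 0.327 (0.618, 0.308 to 1.23). Speer2, which the study names as a negative control not bound by Tip60-p400, had 0.119 against 0.0652, from 9 and 5 reads (1.83, 0.588 to 7.42). Its ratio was above those of Rps9, Nodal and Nefl, where the study reports Tip60 binding. The ratios here thus do not separate this control from those promoters. The intervals reach 2 or more for Rps9, Gata4, Nefl, Dkk1 and Speer2, so a 2-fold excess is not excluded there, while for Nodal and Zfp37 the interval ended below 2.

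**Figure D3:**
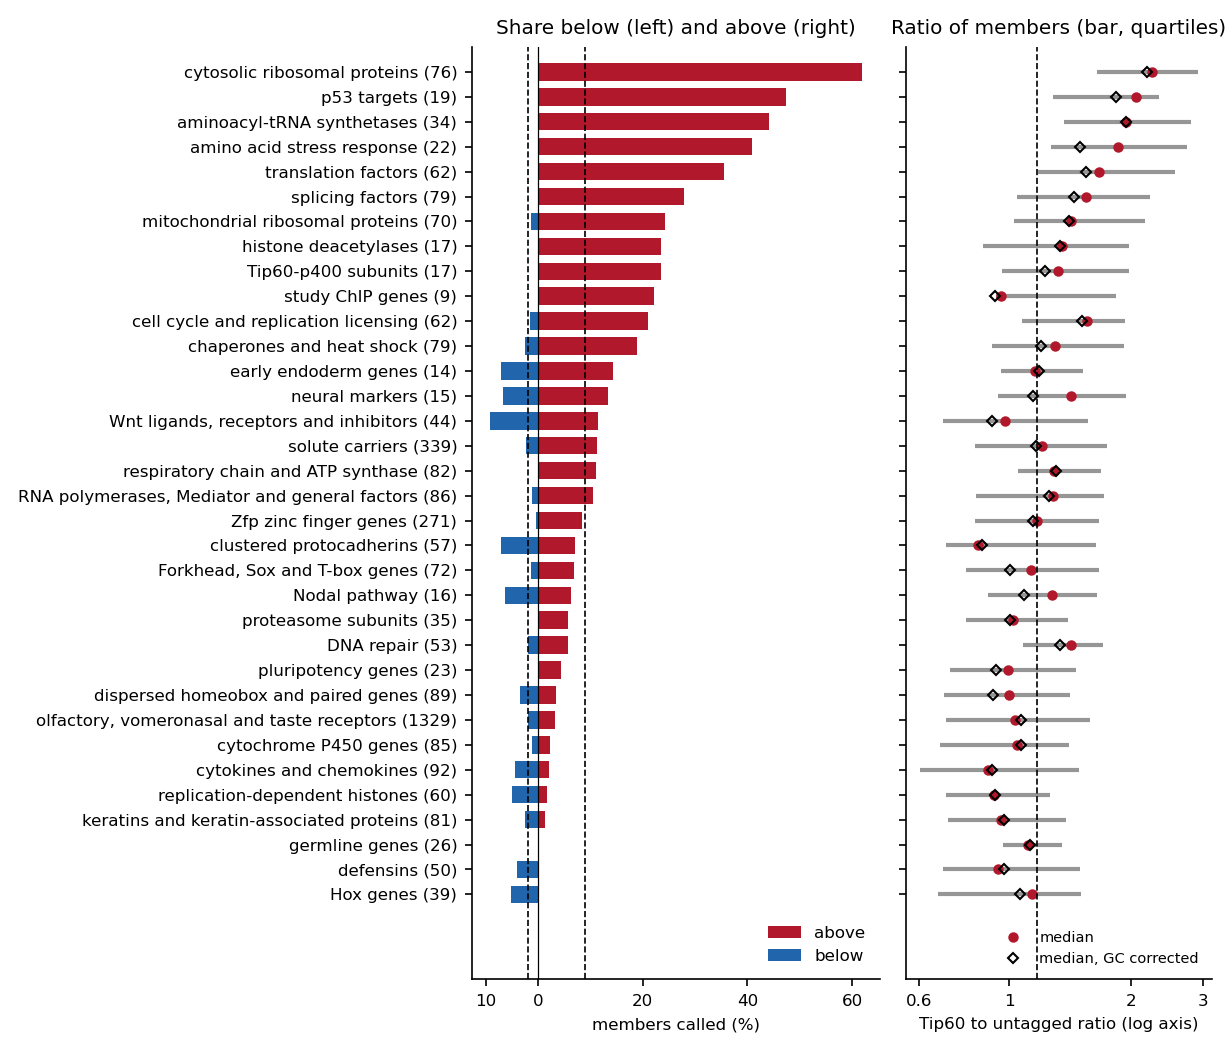
Left, share of the members of each list (number of genes in brackets) that were above (red) or below (blue) background, with dashed lines at 9.06% and 1.88%, the shares over all genes. Right, median ratio (red), median after the GC correction (open diamonds) and quartiles (grey bars) on a log axis, with the dashed line at the median of all genes, 1.17; ribosomal proteins and p53 targets lie at the top and Hox genes, defensins and germline genes at the bottom.

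Not every set of genes used in all cells stood apart. Proteasome subunits, which make up the protease of ubiquitinated proteins, were above background in 2 of 35 (5.71%), with a median ratio of 1.02, although their median p400 signal (0.328) was above that of all genes (0.249). Replication-dependent histones were above in 1 of 60 (1.67%) and below in 3, with a median of 0.915. DNA repair genes were above in 3 of 53 (5.66%), with a median of 1.42. The respiratory chain and ATP synthase were above in 9 of 82, with a median of 1.29, and the RNA polymerases, Mediator and general factors in 9 of 86 (10.5%), with a median of 1.28. Zfp zinc finger genes, many of which repress transposons, were above in 23 of 271 (8.49%), with a median of 1.17.

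Lists of pluripotency and development lay on both sides of the share over all genes, 9.06%. Of 23 pluripotency genes 1 was above (4.35%), Tcl1 (ratio 2.53, 1.20 to 5.29), and the median was 0.993. Pou5f1, the gene of Oct4, had 0.339 against 0.341, Nanog 0.267 against 0.355 and Sox2 0.188 against 0.281, with intervals that took in 1 for these factors. Hox genes had 0 of 39 above and 2 below, with a median of 1.14, and germline genes 0 of 26 above with a median of 1.11. Dispersed homeobox and paired genes had 3 of 89 above (3.37%), Forkhead, Sox and T-box genes 5 of 72 (6.94%) and Wnt ligands, receptors and inhibitors 5 of 44 (11.4%) with 4 below. Depth limited some of these lists. At least 20 reads in both libraries together were held by 22 Hox, 46 dispersed homeobox and paired, and 40 Forkhead, Sox and T-box genes. With the GC correction 2 of the 44 Wnt genes were above. In the Nodal pathway 1 of 16 was above (6.25%), Acvr2a, a receptor (ratio 4.49, 1.16 to 50.9, on 10 and 2 reads), and 1 below, Lefty2, a secreted inhibitor (0.138 against 0.394, ratio 0.350, 0.153 to 0.732). Early endoderm genes had 2 of 14 above (14.3%) and 1 below, and neural markers 2 of 15 above (13.3%) and 1 below, shares that rest on 2 genes each.

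Large families of tissue-specific genes lay under the share of all genes, and low depth limited the calls in most of them. At least 20 reads in both libraries together were held by 393 of the 1329 olfactory, vomeronasal and taste receptors. The same held for 20 of 50 defensins, 43 of 81 keratin genes and 38 of 85 cytochrome P450 genes, against 13011 of all 17689 genes. Olfactory, vomeronasal and taste receptors were above in 44 of 1329 (3.31%) and below in 26 (1.96%), with a median ratio of 1.04 and median signals of 0.105 and 0.102. Defensins had 0 of 50 above and 2 below, keratins and keratin-associated proteins 1 of 81 above and 2 below, cytokines and chemokines 2 of 92 above and 4 below, and cytochrome P450 genes 2 of 85 above and 1 below. Clustered protocadherins had 4 of 57 above and 4 below, with a median of 0.836. Single members reached high ratios on few reads. Olfr54 had 14 and 1 reads (ratio 11.6, 2.31 to 642), and the homeobox gene Lhx9 had 18 and 1 (13.7, 3.08 to 813).

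The excess lay on both sides of the TSS and was higher downstream. Over the 2749 rows above background, the Tip60 signal exceeded the untagged signal by a mean of 0.265 RPM from −100 to 300 bp and by 0.177 from −600 to −200 bp, and the first was higher in 1819 rows (66.2%). Over all rows, without selection by call, the downstream and upstream means were 0.0336 and 0.0172, with the first higher in 52.5%. In synthetases the downstream excess was 0.421 and the upstream excess 0.0831, and the downstream value was higher in 27 of 34 members. In ribosomal protein genes the values were 0.391 and 0.0898, with 67 of 76 members higher downstream. At Yars the excess was 2.04 downstream and 0.201 upstream, and at Iars 1.78 and 0.0949. Psat1 had the opposite arrangement, 0.750 downstream and 1.72 upstream, and the amino acid stress response as a whole was even (0.206 and 0.208).

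**Figure D4:**
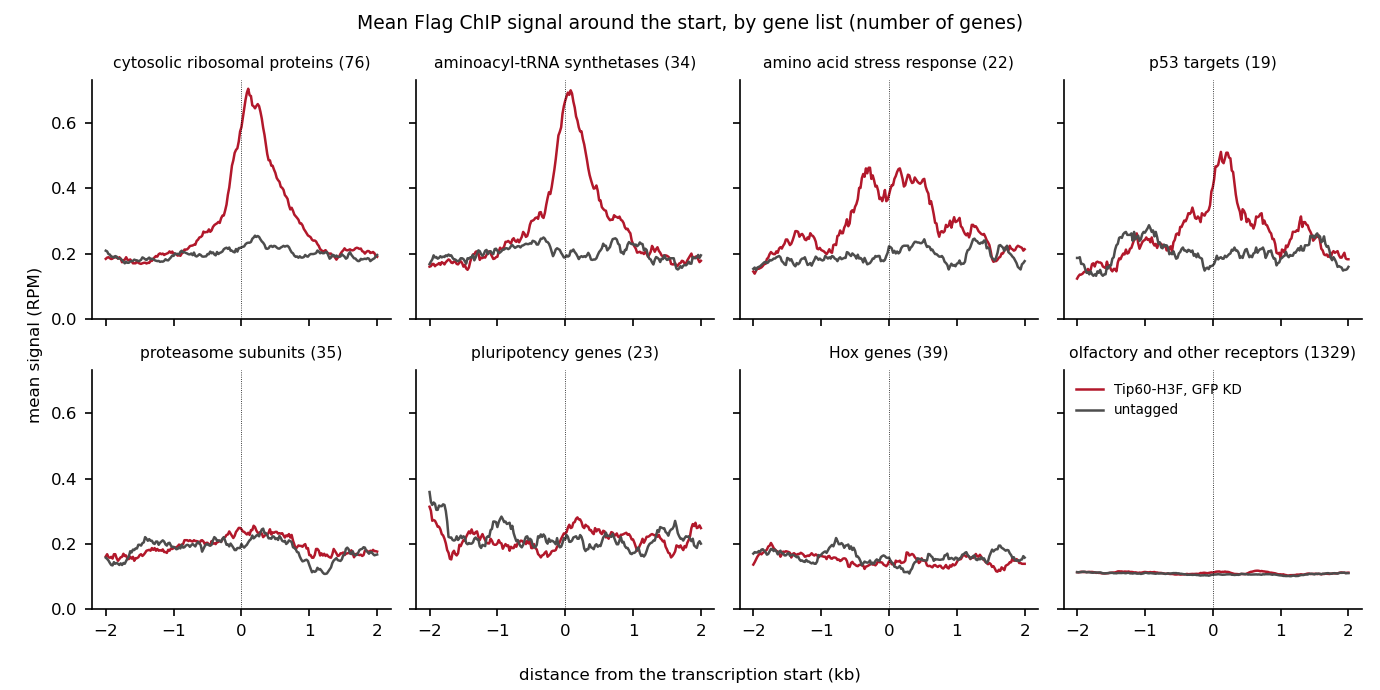
Mean signal (RPM) from −2000 to 2000 bp around the TSS in the Tip60 library upon GFP KD (red) and the untagged library (grey) for 8 gene lists, with the number of genes in brackets. The mean difference was highest 100 bp downstream of the TSS in ribosomal protein genes (0.470) and 40 bp downstream in synthetases (0.501). On the shared axis the lines lie closer in proteasome, pluripotency, Hox and receptor genes, where the largest mean differences were 0.0675, 0.0803, 0.0601 and 0.0117.

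Genes below background were fewer and rested on low Tip60 counts. The 5 lowest ratios without a stack of reads were those of Actbl2 (2 and 20 reads, ratio 0.120, 0.0123 to 0.447), Gabrb1, a GABA receptor gene (2 and 15 reads, 0.124, 0.0160 to 0.622), Olfr1239 (2 and 12 reads, 0.143), Gm1975 (2 and 12 reads, 0.144) and Pcdhga4 (4 and 30 reads, 0.146, 0.0370 to 0.410). They hold a cytoskeletal gene, a receptor of neurons, an olfactory receptor, an unnamed gene and a protocadherin. Taf11, of the general factor TFIID, was the lowest of its list, with 0.0744 against 0.350 (0.213, 0.0584 to 0.508). Over the 333 genes the median signal was 0.0873 in the Tip60 library and 0.263 in the untagged library. For the 1602 genes above, the medians were 0.333 and 0.124, against 0.180 and 0.157 over all genes, so a low background entered the calls above as a high one entered those below.

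The share above background moved with the sequence of the promoter. It was 3.11% of 3768 genes with a CpG observed to expected ratio under 0.2 and 19.4% of 1513 genes with 1 or more, while the share below went from 2.79% to 0.529%. The mean signal at the first class was 0.132 in the Tip60 library and 0.131 in the untagged one, and at the second 0.251 and 0.163. The libraries also differed with GC content away from promoters. In flank windows whose centre lay more than 1000 bp from any other TSS, the Tip60 to untagged ratio was 0.967 at 35 to 40% GC. It was 1.07 at 60 to 65% and 1.26 at 65% and over, where the promoter ratio was 1.45. These flank ratios rest on 11254, 590 and 206 windows, and the last was applied to 4232 rows. Whether such GC-rich flanks carry Tip60 signal themselves was not tested. When each ratio was divided by the flank ratio of its GC class, 1348 genes were above background (7.62%), with 45 of 76 ribosomal protein genes, 16 of 34 synthetases, 19 of 62 translation factors, 18 of 79 splicing factors and 53 of the 1329 receptors among them. The part of this GC difference in the other calls was not tested.

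**Figure D5:**
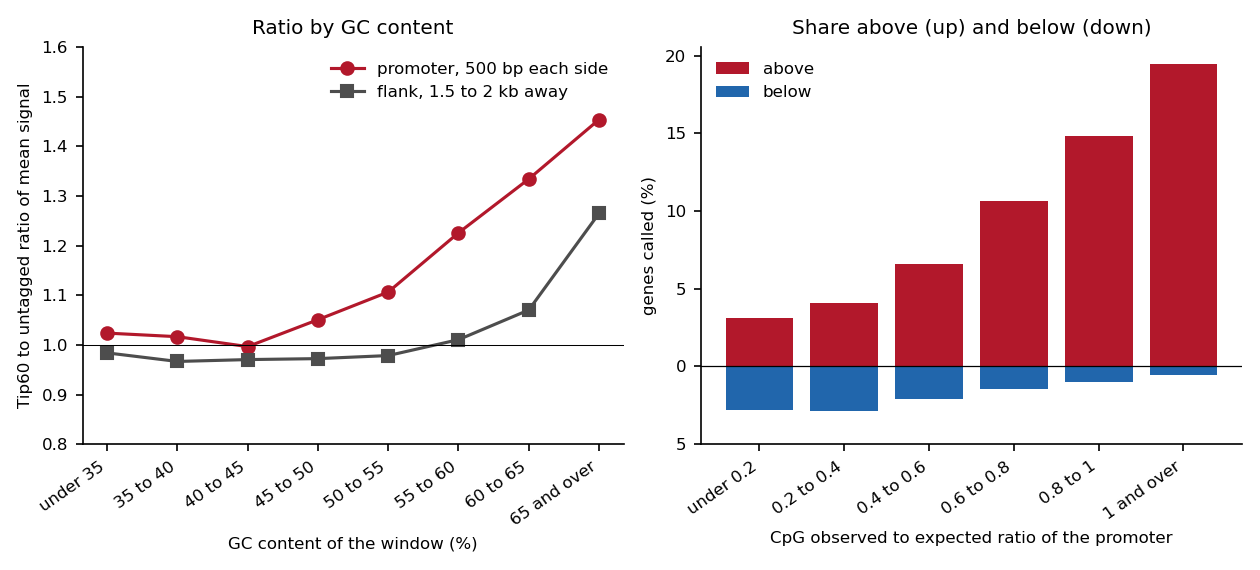
Left, Tip60 to untagged ratio of the mean signal at promoters (red) and at flanks 1.5 to 2 kb away (grey) by GC content of the window. Right, share of genes above (red) and below (blue) background by the CpG observed to expected ratio of the promoter; the flank ratio stays near 1 up to 60% GC and is 1.26 at 65% and over, and the share above goes from 3.11% to 19.4%.

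Motifs were searched on both strands in the window of 300 bases shown above. The GC box, GGGCGG, which Sp1 binds, was in 63.7% of genes above background and 47.4% of all genes. The ETS core CCGGAA was in 29.4% and 19.4%, the core of YY1 sites ATGGCG in 21.0% and 12.2%, and the CRE core TGACG in 34.7% and 24.5%. The E-box CACGTG was in 12.0% and 7.89% and the NRF1 core TGCGCA in 15.2% and 10.0%. The CCAAT box was in 35.5% and 37.2%, and TATAAA was in 7.12% and 13.0%. Among the 8723 genes with a CpG ratio of 0.6 or more, the GC box was in 74.5% of those above background and 74.6% of all. In the same genes the YY1 core was in 25.3% and 19.9% and the ETS core in 36.0% and 31.9%. The CRE core was in 40.9% and 36.0%, the E-box in 13.5% and 11.1% and the NRF1 core in 18.4% and 16.9%. The CCAAT box was in 34.9% and 36.3%, and TATAAA in 4.84% and 5.59%. Most of these differences were thus smaller than over all genes. Among the promoters printed above, the letters ATGGCG stand in those of Yars2 and Sf3b3, downstream of the TSS. Because the window reaches past the TSS, a match to these letters can also be a translation start, ATG. Matches at YY1 sites and at translation starts were not told apart, here or in the shares above. Ribosomal protein genes held the ETS core in 55.3% of members and synthetases in 61.8%.

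A composite site of C/EBP and ATF factors, TGATGCAA, was searched after the leading genes had been seen. It was in 130 of 17689 promoters (0.735%), and 24 of these genes were above background (18.5%, against 9.06% of all genes). The 24 include the synthetases named next, among them leading genes seen before the search. This share therefore does not test a link between the site and Tip60 signal. It was in 7 of the 34 synthetase promoters (20.6%), those of Yars, Iars, Tars, Aars, Mars, Nars and Cars, and these 7 were above background with ratios from 2.26 to 6.24. In the amino acid stress response it was in 3 of 22, namely Chac1 (ratio 3.22), Slc7a11 (1.94) and Atf3 (1.25), and in ribosomal protein genes in 0 of 76. The promoter of Yars printed above holds it, and that of Psat1 does not hold it but has the CCAAT box 3 times. A match of letters is a description and does not show binding.

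The other ChIP libraries gave values that the calls did not use. For the 1602 genes above background the median p400 signal upon GFP KD was 0.364, against 0.249 over all genes and 0.196 for the genes below. Of the genes above background, 515 (32.1%) lay in the top 10% of p400 signal, against 7.91% of the 15754 genes between the thresholds and 8 of the 333 below (2.40%). Among the lists, 56 of 76 ribosomal protein genes (73.7%) and 18 of 34 synthetases (52.9%) lay in that top 10%, and 0 of the 1329 receptors did. Not every list followed the calls in this way. Of 53 DNA repair genes, 17 lay in the top 10% of p400 signal and 3 were above background. For 35 proteasome subunits these counts were 9 and 2. For 86 genes of RNA polymerases, Mediator and general factors they were 25 and 9. Hdac6-H3F signal upon GFP KD had medians of 0.198, 0.149 and 0.113 for genes above, all genes and genes below, and Tip60-H3F signal upon Hdac6 KD had 0.196, 0.147 and 0.135. The latter sample shares its cell line and antibody with the Tip60 sample of the comparison, and each library is 1 sample. Yars had a p400 signal of 1.17, Psat1 1.14, Slc7a1 1.03 and Hspa9 1.33, each over 4 times the median gene. The median GC content was 59.7% for genes above and 55.5% for all genes, and its part in these medians was not tested.

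Across chromosomes the flank ratio of the libraries ran from 0.960 to 1.02, so no chromosome stood apart in the balance of the 2 libraries. The share of rows above background was lowest on X (3.46%), where the untagged flank signal was 0.0771, against 0.151 over all rows. Fewer reads limit the calls there, and the part of this in the low share was not tested.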

How the data were processed

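ChIP-seq of 7 mouse ESC samples was deposited, and 2 of them, each without replicate, are compared here. The deposited values are signal (read coverage), as calculated by the authors. As the study's methods describe, single-end reads were collapsed by sequence with their number kept, mapped to mm9 with bowtie at up to 1 mismatch, placed at one match where several were equal, extended, and summed every 20 bp from −2000 to 2000 bp around each TSS. The submitters' processing notes also name CASAVA 1.8.2. The bowtie version is not given in the sources used here. The values are whole multiples of 1 read, from which depth and, with a span of 299 bp for an isolated read, reads per promoter were computed. Precision is set by these reads, with medians of 12 per promoter in both libraries, and intervals cover counting error alone.

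From these values the ratio of mean signal from −500 to 500 bp was computed for each row, with the exact conditional (Clopper-Pearson) 95% interval of the reads, in Python 3.11.15 with numpy 2.4.6, scipy 1.17.1 and pandas 2.3.3. Figures were drawn with matplotlib 3.10.9. The call rule was tested on simulated data. Sequences were read from the mm9 (NCBIM37) genome. Gene lists were written from symbols, and the members and lists were chosen with earlier results of these data known. Named genes were the 10 highest ratios with at least 30 Tip60 reads, untagged signal at or under the upper quartile and no read stack over 50% of reads; the 10 largest differences and 5 lowest ratios under the same stack rule; the 2 highest and 2 lowest members of each list with at least 10 reads; and the promoters and subunits the study concerns. Further members are given with their values as examples chosen after these were seen. Of the deposited files, those of Hdac6-H3F upon Tip60 KD and of p400 upon Hdac6 KD were not used here. With 1 sample a side no test between conditions was made. Alternatives changed the fold, the window, the scaling, the filters and the row of a gene.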

Additional observations from a re-analysis of the deposited data

How the results depend on the processing

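Counts of calls depended on the threshold and the window more than on scaling. At 3-fold there were 1184 rows above and 426 below, and 626 genes above and 159 below. The adjusted exact test on reads gave 419 rows above and 24 below, and 292 genes above and 18 below. With the window from −250 to 250 bp there were 1744 rows above and 380 below, and 1019 genes above and 172 below, and the ratio of mean promoter signal was 1.204. From −100 to 300 bp there were 1539 and 289 rows and 921 and 120 genes, and the ratio was 1.224. From −1000 to 1000 bp there were 1014 genes above, and the ratio was 1.106. The ratio was 1.19 with equal flank signal, 1.18 once rows in the top 1% of untagged signal were dropped and 1.141 with the GC correction. Narrower windows hold fewer reads. The cause of the other differences was not tested. Adding 1 read to each library, requiring 20 reads, leaving out read stacks, a 1.5-fold threshold, and another row for a gene kept each count within 1.5 times. By list, the number of members above stayed within 1.5 times for 34 of 34 lists with equal flank signal, 26 with the GC correction, 17 with the window from −100 to 300 bp and 3 with the adjusted exact test, which called 25 of 76 ribosomal protein genes and 9 of 34 synthetases above, against 1.65% of all genes. The depth of 12 reads per promoter limits what single genes can show. No paired analysis was possible because each side is 1 sample.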
